A study of Mus musculus with 6 samples.

Results

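The ADP-ribosylation system was followed through 8 genes: the poly(ADP-ribose) polymerase (PARP) genes Parp1, Parp2, Parp3, Parp9, Parp10, Parp12 and Parp14, and Dtx3l, whose product works as a partner of Parp9. They were selected by symbol, and all 8 were found among the 23284 genes of the count tables. Parp9, Parp10, Parp12, Parp14 and Dtx3l form the interferon-inducible group of 5, and Parp1, Parp2 and Parp3 the DNA-repair group of 3. The libraries came from homogenized liver of C57BL6/J mice aged 8 weeks, 3 from wild type animals (WT1 to WT3) and 3 from Trim24 -/- animals (KO1 to KO3), and strain, tissue and age were the same in both groups. Nothing in the labels ties a replicate to an animal of its own or says how the Trim24 allele was made, so p-values refer to the spread among these libraries, which may be technical.

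PARP enzymes take ADP-ribose from NAD+ and attach it to proteins, as a single unit or as a chain. Parp1, Parp2 and Parp3 are activated by broken DNA and mark the break for repair. Many other members attach single units only, and several of them are induced by interferon as part of antiviral defence.

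Between 1495583 and 2872421 reads per library were assigned to genes, 4.22% to 6.69% of counted reads, and KO3 was the deepest. One read was worth 0.348 CPM (counts per 1e6 reads in tested genes after scaling) in KO3 and 0.699 CPM in WT1. The hepatocyte gene Alb had 93620 to 224143 reads in every library. Trim24 had 31, 45 and 44 reads in wild type and 3, 2 and 2 in the knockout libraries. KO1 and KO3 stood apart in transcripts of pancreatic acinar cells, with 15 marker genes summing to 890 and 575 CPM against 2.71 CPM in KO2 and 1.19 to 23.1 CPM in wild type, so results are also given with KO2 as the only knockout library. In bulk liver RNA, a change in the number of expressing cells and a change in RNA per cell cannot be told apart.

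Members of the set lie in shared genomic neighbourhoods, and promoter stretches of some of them are printed below as a description. On chromosome 16 the order is Parp14, Dtx3l, Parp9. Parp9 and Dtx3l run in opposite directions from overlapping first exons and share 367 exon bases in GENCODE M21. On chromosome 14 Parp2 lies head to head with Rpph1, the gene for the RNA subunit of RNase P. RefSeq promoter windows on GRCm38.p6 (250 bases before to 50 after a start) were found for 5 of the 8 members. Capitals in the first sequence mark the 73 bases between the annotated starts of Rpph1, read leftwards, and Parp2, read rightwards (chr14:50807733-50807840, + strand).
Parp2 and Rpph1: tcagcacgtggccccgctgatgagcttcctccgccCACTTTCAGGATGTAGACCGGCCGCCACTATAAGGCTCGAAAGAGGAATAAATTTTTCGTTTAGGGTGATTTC
The second lies upstream of the annotated starts of Dtx3l and just past the first exons of Parp9 (chr16:35939207-35939277, - strand).
Dtx3l and Parp9: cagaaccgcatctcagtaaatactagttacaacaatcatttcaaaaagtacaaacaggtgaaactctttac
The third is the stretch before the start of Parp12, shown because Parp12 was the only one of the genes that rose, described next, whose window the table holds (chr6:39118350-39118599, - strand).
Parp12: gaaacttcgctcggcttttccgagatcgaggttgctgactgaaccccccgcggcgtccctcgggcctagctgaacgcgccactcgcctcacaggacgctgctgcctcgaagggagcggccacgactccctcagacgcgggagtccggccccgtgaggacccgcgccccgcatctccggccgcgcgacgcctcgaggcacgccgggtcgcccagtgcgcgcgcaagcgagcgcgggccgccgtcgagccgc
Its window is rich in G and C, at 73.7% against a median of 52.7% over 32851 promoter windows.

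The windows were searched on both strands for the core of the interferon-stimulated response element, GAAANNGAAA, and for the STAT site, TTCNNNGAA or TTCNNNNGAA, the last 2 reading the same on both strands. These patterns occur in 3.44%, 8.30% and 6.95% of all windows. None of the windows of Parp1, Parp2, Parp3, Parp12 and Dtx3l held the response element core or TTCNNNGAA, and the Dtx3l window held TTCNNNNGAA once. Among PARP family genes outside the set, the Parp4 window held 2 overlapping response element cores, in capitals here (chr14:56575449-56575504, + strand), and Parp16 held TTCNNNGAA across its start (chr9:65214666-65214694, + strand).
Parp4: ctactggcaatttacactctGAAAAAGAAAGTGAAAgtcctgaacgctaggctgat
Parp16: gaggtcagacatttgagcaaTTCAGAGAA
One of the windows of Parp11 held GAAANNGAAA and TTCNNNGAA once each, and these 2 matches overlapped. A match describes letters in the window and not binding.

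Of the 5 interferon-inducible members 3 rose in the knockout, namely Parp14, Parp12 and Parp9, and none fell. Over all 9180 tested genes, 3.08% were called higher and 5.73% were called in either direction. The median log2 fold change was 0.95 over the 5 genes and 0.008 over all tested genes. All 5 had a positive fitted change, and in 4 of them the lowest knockout library lay above the highest wild type library, an arrangement found for 12.4% of all tested genes. For Parp10 the minimum of the expression filter was reached in 1 wild type and all 3 knockout libraries, so it was tested because of its knockout level, and a count that includes it is no evidence of direction.

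Parp14, a large enzyme with macrodomains that bind ADP-ribose and a cofactor of interleukin 4 signalling through Stat6, had 65, 56 and 53 reads in WT1 to WT3 and 106, 192 and 221 in KO1 to KO3. On the CPM scale this was 45.4, 37.0 and 31.5 against 65.6, 104 and 76.9. The groups did not overlap, and KO2 was highest. The log2 fold change was 1.12 (SE 0.21, 95% interval 0.67 to 1.57), a 2.17-fold rise, with an edgeR adjusted p of 0.0066. With KO2 as the only knockout library it was 1.46 (edgeR adjusted p = 0.0014), and the call ended without WT3 (0.99, edgeR adjusted p = 0.052).

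Parp9 has macrodomains but little catalytic activity of its own and pairs with Dtx3l in the interferon response. Its reads were 97, 79 and 122 in wild type and 161, 215 and 361 in the knockout, or 67.8, 52.2 and 72.4 CPM against 99.7, 117 and 126 CPM. Each knockout library lay above every wild type one. The fitted rise was 1.78-fold (log2 0.83, SE 0.17, edgeR adjusted p = 0.011). It was 0.86 with KO2 alone (edgeR adjusted p = 0.031), and without WT2, the lowest library, it was 0.70 and not called (edgeR adjusted p = 0.071).

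Parp12, a zinc finger member that attaches single ADP-ribose units and restrains several RNA viruses, had 39, 50 and 53 reads in wild type and 69, 96 and 230 in the knockout. That was 27.2, 33.1 and 31.5 CPM against 42.7, 52.1 and 80.0 CPM. Wild type libraries were close together, whereas KO3 stood well above KO1 and KO2. The log2 fold change was 0.95 (SE 0.23, edgeR adjusted p = 0.031), or 1.93-fold. This was the least stable of the 3 calls. It ended without WT1, WT2, WT3 or KO3 (edgeR adjusted p = 0.118, 0.081, 0.108 and 0.112), with KO2 alone (log2 0.76, edgeR adjusted p = 0.097) and narrowly with limma-voom (adjusted p = 0.0501). Without KO3 the log2 fold change was 0.63.

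Parp10, which attaches single ADP-ribose units and also binds ubiquitin, was scarce, with 2, 7 and 11 reads in wild type and 17, 27 and 27 in the knockout. Its level averaged 4.19 ± 2.60 against 11.5 ± 2.8 CPM (SD, n = 3 each), and the highest wild type library stood at 6.53 CPM and the lowest knockout library at 9.39 CPM. No wild type library reached a knockout one. The fitted log2 fold change of 1.39 was the highest of the 8 genes and had the widest interval (0.47 to 2.31). It did not pass (edgeR adjusted p = 0.075), except without the filter on low counts (edgeR adjusted p = 0.016) or at a threshold of 0.1.

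Dtx3l, a ubiquitin ligase of the Deltex family, did not pass and its groups overlapped. It had 110, 124 and 167 reads in wild type and 167, 150 and 307 in the knockout. The CPM values were 76.8, 82.0 and 99.2 against 103, 81.4 and 107, so KO2 lay below WT2 and WT3. The log2 fold change was 0.18 (95% interval -0.18 to 0.54, edgeR adjusted p = 0.61), which leaves room for a rise of up to 1.45-fold. KO2 was the library with the highest Parp14 and Parp10 levels and the lowest Dtx3l level of the knockout.

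**Figure D1:**
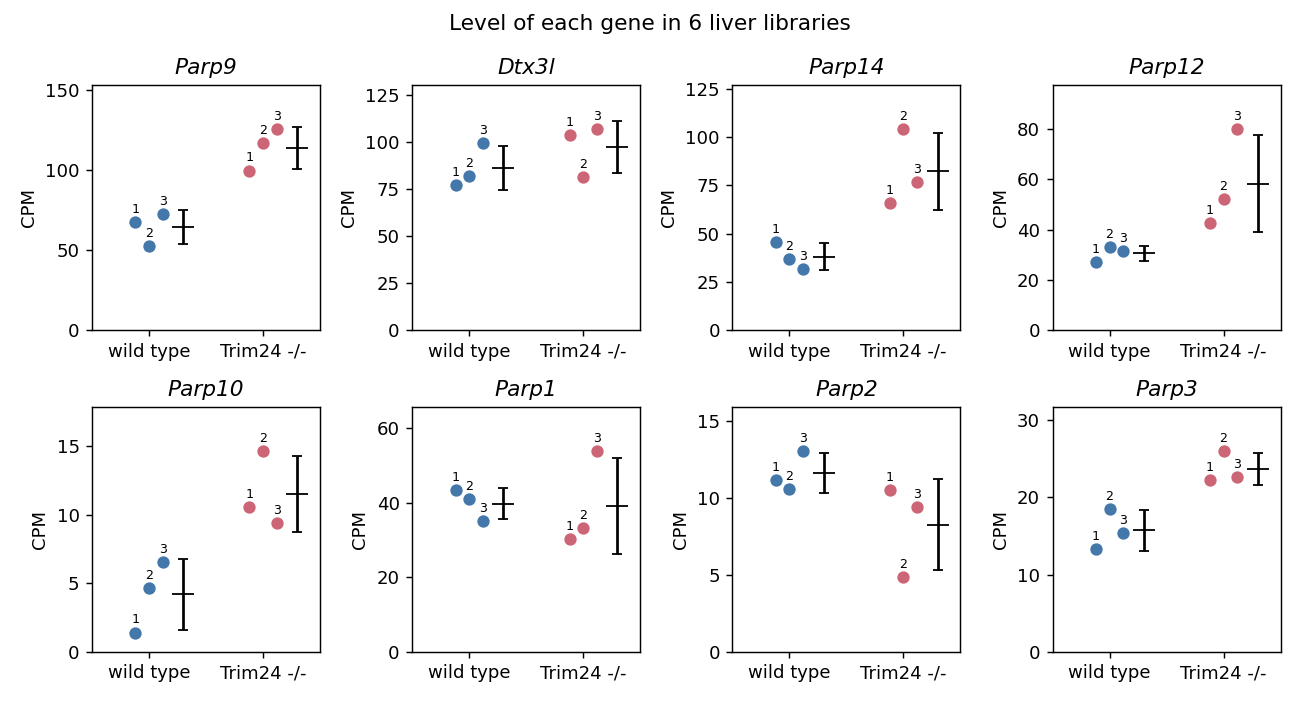
Level of each of the 8 genes in CPM (vertical axes start at 0) in 3 wild type (blue) and 3 Trim24 -/- (red) liver libraries, numbered by replicate, with the mean ± SD of each group in black. Parp9, Parp14, Parp12, Parp10 and Parp3 show no overlap between groups with the knockout higher, Parp2 with the knockout lower, and Dtx3l and Parp1 overlap.

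None of the 3 DNA-repair members passed the test, by edgeR, DESeq2 or limma-voom, and 1, Parp3, had an unadjusted edgeR p under 0.05. Over all 9180 tested genes edgeR called 5.73% in either direction, so 0 calls among 3 genes does not set them apart. Their log2 fold changes were spread around 0, with a median of 0.009. Parp1, the main sensor of DNA breaks, had 62, 62 and 59 reads in wild type and 49, 61 and 155 in the knockout. In CPM it was at 43.3, 41.0 and 35.0 against 30.3, 33.1 and 53.9, so KO1 and KO2 lay below the wild type libraries and KO3 above them. The fitted change was 0.009 (95% interval -0.48 to 0.50, edgeR adjusted p = 0.99), and it was -0.32 without KO3 and -0.26 with KO2 alone.

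Parp2, which shares the repair of single-strand breaks with Parp1, had 16, 16 and 22 reads in wild type and 17, 9 and 27 in the knockout. Every knockout library was below every wild type one in CPM (10.5, 4.88 and 9.39 against 11.2, 10.6 and 13.1), but KO1 and WT2 differed by less than the worth of 1 read. The log2 fold change of -0.48 (95% interval -1.19 to 0.23) did not pass (edgeR adjusted p = 0.45). With so few reads a halving would lie inside this interval.

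Parp3, which acts with Aplf in the joining of double-strand breaks, had a positive fitted change where that of Parp2 was negative. It had 19, 28 and 26 reads in wild type and 36, 48 and 65 in the knockout, or 15.7 ± 2.6 and 23.7 ± 2.1 CPM (SD, n = 3 each), with no overlap. The log2 fold change was 0.58 (95% interval 0.08 to 1.08), and it did not pass (edgeR adjusted p = 0.17). Separate groups in one direction or the other were found for 25.0% of the tested genes, so this arrangement alone does not set Parp2 and Parp3 apart.

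The 2 groups of members were set against each other inside each library, where no scaling factor enters. Reads in the 5 interferon-inducible genes were 3.23, 2.98 and 3.79 times those in the 3 DNA-repair genes in WT1 to WT3, and 5.10, 5.76 and 4.64 times in KO1 to KO3. The 3 knockout ratios lay above the 3 wild type ratios. Exact 95% intervals, which cover counting error only, were 3.06 to 4.74 for WT3, the highest wild type library, and 4.04 to 5.35 for KO3, the lowest knockout library, so these 2 were not separated by counting error. No p-value is given, since the members were picked with results known.

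**Figure D2:**
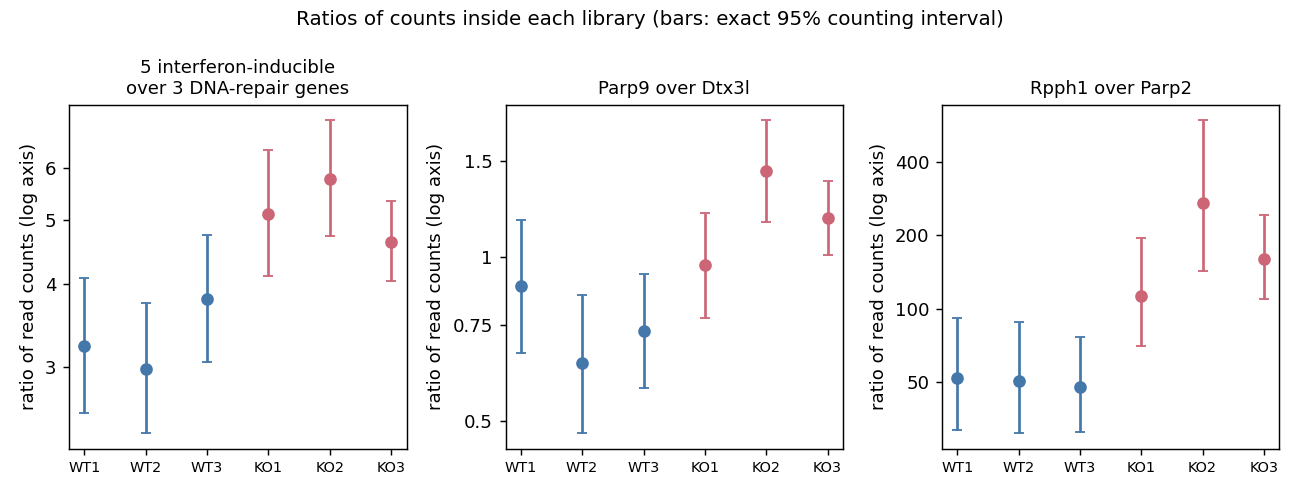
Ratio of read counts inside each library (log axes), with wild type in blue, Trim24 -/- in red and bars for the exact 95% counting interval. In all 3 panels the knockout ratios lie above the wild type ratios: the 5 interferon-inducible over the 3 DNA-repair genes, Parp9 over Dtx3l, and Rpph1 over Parp2.

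Parp9 and Dtx3l, which start from the same stretch of DNA, had unequal fitted changes, 0.83 and 0.18 on the log2 scale. Reads in Parp9 were 0.882, 0.637 and 0.731 times those in Dtx3l in wild type and 0.964, 1.43 and 1.18 times in the knockout. The groups did not overlap, although WT1 and KO1 were close, with intervals of 0.664 to 1.17 and 0.772 to 1.20. The mean log2 ratio was -0.43 ± 0.24 in wild type and 0.23 ± 0.29 in the knockout (SD, n = 3 each). This pair was singled out after its values were seen, so no p-value is given. The exon bases they share are 10.3% of the Parp9 and 6.41% of the Dtx3l exon bases, and no source used here says whether counting used strand, so reads there cannot be assigned with certainty.

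At the Parp2 promoter the partner gene was called and Parp2 was not. Rpph1 had 830, 805 and 1046 reads in wild type and 1921, 2440 and 4309 in the knockout, or 578 ± 44 and 1338 ± 155 CPM (SD, n = 3 each). It rose in all knockout libraries relative to all wild type ones (log2 fold change 1.21, SE 0.15, edgeR adjusted p = 0.00052), and the call held under all 16 alternatives (highest adjusted p = 0.0057). Rpph1 reads were 51.9, 50.3 and 47.5 times those of Parp2 in wild type and 113, 271 and 159.6 times in the knockout. The mean log2 ratio was higher by 1.77 in the knockout, given as a description because Rpph1 was set beside Parp2 with the values of both known. Rpph1 is transcribed by RNA polymerase III and its RNA carries no poly(A) tail, while Parp2 is read by RNA polymerase II. No source used here says how poly(A) RNA was handled, so only the change between libraries is compared, not the level of one gene against the other. In GENCODE M21, 73.0% of the Rpph1 exon bases also belong to exons of Ccnb1ip1 on the same strand. Ccnb1ip1 had 2 reads in WT1 and none in the other libraries, and the reads given to Rpph1 are uncertain to that extent.

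Among other neighbours of the members, none of the following passed the test. Kpna1, next to Parp9, averaged 75.8 ± 6.0 CPM in wild type against 77.7 ± 3.9 CPM in the knockout (SD, n = 3 each). Plec, whose gene body overlaps Parp10 without shared exon bases, averaged 134 ± 14 against 133 ± 18 CPM, and Grina, beside Parp10, 89.7 ± 6.7 against 105 ± 13 CPM.

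Per kilobase of exon (GENCODE M21), Parp9 was the most abundant of the 8 genes in wild type liver, at 18.1 ± 3.0 CPM per kb. Dtx3l followed at 15.0 ± 2.0, then Parp1 at 10.3 ± 1.1, Parp12 at 9.47 ± 0.93, Parp2 at 6.13 ± 0.68, Parp14 at 5.12 ± 0.95, Parp3 at 4.81 ± 0.81 and Parp10 at 1.24 ± 0.77 CPM per kb (SD, n = 3 each). The library ranges of Parp9 and Dtx3l overlapped, as did those of Parp1 and Parp12, of Parp2 and Parp14, and of Parp14 and Parp3. In the knockout Parp9 stayed first at 32.1 ± 3.7 CPM per kb and no longer overlapped the next gene, Parp12 (18.0 ± 6.0). Parp14 lay below Parp2 in the wild type order and above Parp1 in the knockout order, at 11.1 ± 2.7 CPM per kb, although its range overlapped that of Parp1.

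Of the remaining PARP family 1 gene was called. Of 9 listed genes, 7 passed the filter, 1 rose and none fell, with a median log2 fold change of 0.07. Among all tested genes 5.73% were called in either direction. The gene that rose was Parp16, an enzyme anchored in the endoplasmic reticulum membrane that modifies the stress sensors Perk and Ire1. It had 10, 10 and 20 reads in wild type and 33, 57 and 77 in the knockout. The change was 3.03-fold (log2 scale 1.60, SE 0.29, edgeR adjusted p = 0.0060), with no overlap between groups, and it was called under all 16 alternatives, including KO2 alone (1.83, edgeR adjusted p = 0.0066). Its fold was higher than that of any of the 8 genes, although the difference between genes was not tested.

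Tnks2, a tankyrase that marks Axin for breakdown, was the most abundant of the other family members per kilobase (21.0 ± 0.4 CPM per kb in wild type) and did not pass, at 136 ± 3 and 120 ± 8 CPM. Zc3hav1, the antiviral zinc finger protein known as ZAP or PARP13, was at 39.9 ± 2.5 and 41.4 ± 6.4 CPM (log2 0.07, 95% interval -0.33 to 0.46), although it is itself known as an interferon-stimulated gene. Parp4, whose window holds the response element cores printed above, had 19, 24 and 32 reads in wild type and 43, 29 and 30 in the knockout, with overlapping groups (log2 0.07, 95% interval -0.65 to 0.78). Parp11 (6, 5 and 9 reads against 6, 22 and 15) and Parp8 (1 to 6 reads) were too scarce to be tested.

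**Figure D3:**
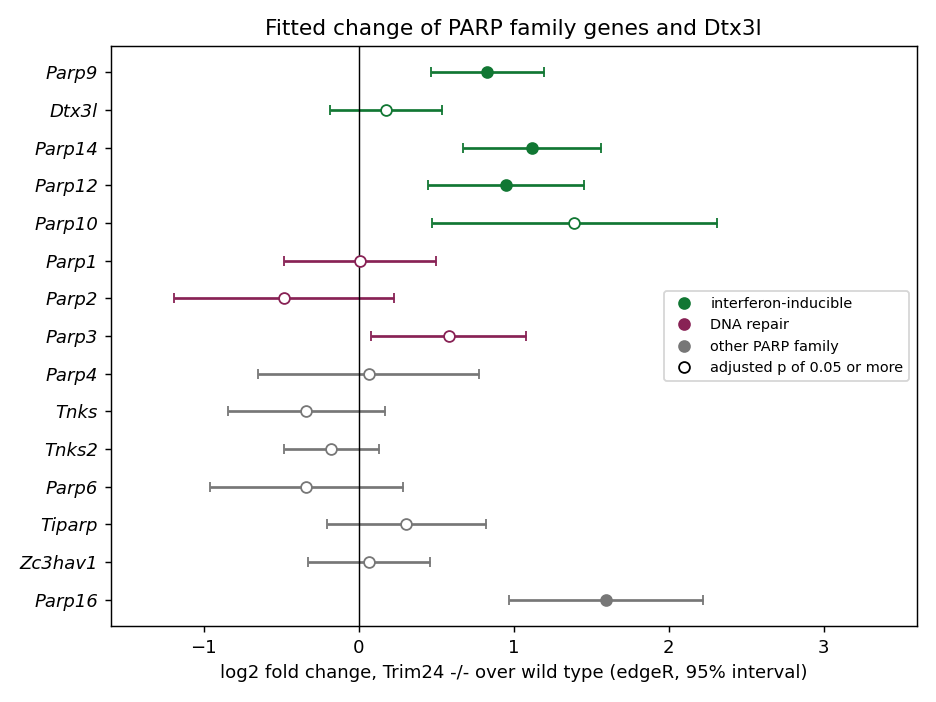
Fitted log2 fold change of Trim24 -/- over wild type (horizontal axis) with its 95% interval from edgeR, for the 8 genes and the 7 other tested PARP family genes. Filled points passed at an adjusted p under 0.05: Parp9, Parp14, Parp12 and Parp16, while Dtx3l and the DNA-repair genes are open.

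Upstream of the interferon-inducible members, 5 of 16 tested receptor and signalling genes rose and none fell, with a median log2 fold change of 0.11. Over all tested genes, 3.08% were called higher and 2.65% lower. Irf9, a transcription factor of the interferon response, rose from 18.2 ± 1.4 to 44.9 ± 4.2 CPM (SD, n = 3 each, edgeR adjusted p = 0.0018). Irf7, an amplifier of type I interferon production, had 13, 17 and 12 reads against 25, 99 and 134 (edgeR adjusted p = 0.0082), a call that ended without WT3 (0.056). Stat2 (35.8 ± 4.4 to 61.2 ± 14.5 CPM, edgeR adjusted p = 0.038) and the feedback inhibitor gene Socs3 (4.78 ± 2.16 to 19.9 ± 12.4 CPM, edgeR adjusted p = 0.029) rose, but their calls ended under several alternatives. The Stat2 call ended with DESeq2, limma-voom or KO2 alone (adjusted p up to 0.358, with KO2 alone), and without WT1, WT2, WT3 or KO3 (up to 0.177, without WT3) and that of Socs3 with limma-voom and without any 1 library other than KO1 (up to 0.130, without WT3). The count of 5 fell to 3 without WT1, WT2 or KO3 and to 2 without WT3. Over all genes the calls higher fell from 283 to 175, 171, 203 and 127 without WT1, WT2, KO3 and WT3. The receptor genes did not pass, with Ifnar1 at 63.1 ± 7.3 and 61.6 ± 14.8 CPM and Ifngr1 at 20.2 ± 2.6 and 22.1 ± 5.4 CPM. A level worth 3 reads, taken as the limit for a count of 0, was 1.04 CPM in KO3, the deepest library, and 2.10 CPM in WT1. Of 10 interferon genes, 9 had no read in any library, so their RNA was not detected at this depth. The other one, Ifnk, had 4 to 10 reads in each library.

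Genes whose pattern over the 6 libraries was closest to the mean of the 5 interferon-inducible members were sought among 7728 tested genes of at least 10 CPM, by the root mean square difference of centred log2 values. The closest were B4galt5, a galactosyltransferase (0.07), Scfd1, a vesicle fusion factor (0.10), Atp6v1d, a proton pump subunit (0.11), Snrpa, a U1 snRNP protein (0.11), Ifih1, a sensor of viral double-stranded RNA (0.12), and D9Ertd402e (0.12). Ifih1 averaged 55.3 ± 4.6 CPM in wild type against 107 ± 21 CPM in the knockout (SD, n = 3 each). A difference between groups is built into this choice, since the mean pattern itself separates them, and is not tested for these genes. Parp10 enters the mean, although it was tested because of its knockout level. Its values in WT1 to WT3, -1.11, 0.33 and 0.78 (log2 difference from the wild type mean), were the most widely spread of the 5. The order of the genes and the distances below thus depend in part on Parp10. The members themselves were at 0.18 for Parp9, 0.22 for Parp12, 0.32 for Parp14, 0.41 for Dtx3l and 0.58 for Parp10, although they enter the mean. Parp3, which does not enter it, was at 0.22, nearer than 4 of the 5 genes that do, although Parp12 was at nearly the same value, while Parp1 and Parp2 were at 0.57 and 0.81.

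Genes that make or use NAD+, the substrate of PARP enzymes, were called in both directions. Of 18 tested genes 1 rose and 3 fell, with a median log2 fold change of -0.10, where 3.08% of all tested genes were called higher and 2.65% lower. Nampt, the rate-limiting enzyme of NAD+ salvage from nicotinamide, rose from 82.5 ± 12.9 to 140 ± 16 CPM (SD, n = 3 each, edgeR adjusted p = 0.017). The 3 genes that fell encode enzymes of the route from tryptophan, namely Tdo2 (3007 ± 511 to 1940 ± 109 CPM, edgeR adjusted p = 0.035), Afmid (104 ± 28 to 60.8 ± 8.5 CPM, 0.035) and Haao (309 ± 32 to 191 ± 32 CPM, 0.028). Other listed genes of tryptophan breakdown, Ido2, Kmo, Kynu, Acmsd and Qprt, were not called. All 4 calls ended when some library was left out. For Nampt these were WT1, WT2 and KO2 (edgeR adjusted p up to 0.084), for Haao WT1, WT3 and KO2 (up to 0.126), for Tdo2 every library but WT1 and KO1 (up to 0.150), and for Afmid WT1, WT3, KO2 and KO3 (up to 0.185). The calls of Tdo2 and Afmid also ended with library totals only and with KO2 alone.

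Genes that remove or read ADP-ribose gave no call by edgeR among 9 tested of 16 listed, where 5.73% of all tested genes were called. At an unadjusted p under 0.05 there were 2, Nudt5, a hydrolase of free ADP-ribose (14.5 ± 3.6 to 26.9 ± 3.0 CPM, edgeR adjusted p = 0.051), and Rnf146, the ubiquitin ligase that recognises poly(ADP-ribose) (1966 ± 288 to 1324 ± 221 CPM, edgeR adjusted p = 0.068). Rnf146 passed with DESeq2 (adjusted p = 0.019), with the filter dropped, with the replicate block (0.047) and without KO1, Nudt5 passed with upper quartile or total scaling and with the filter dropped, and limma-voom called neither. Parg, the main enzyme that takes poly(ADP-ribose) apart, was at 25.7 ± 4.5 and 33.2 ± 2.0 CPM, and the macrodomain histone gene H2afy at 51.1 ± 3.1 and 46.5 ± 7.2 CPM. Of the Deltex family beside Dtx3l, only Dtx4 of 4 genes was tested and it did not pass (15.3 ± 3.1 and 19.1 ± 7.2 CPM).

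The repair pathways in which Parp1, Parp2 and Parp3 act held no call by edgeR with the filter, all libraries and a threshold of 0.05. With 5.73% of all tested genes called in either direction, the absence of calls does not set lists of this size apart. Of 23 single-strand break and base excision genes 9 were tested, with 0 called by edgeR, DESeq2 or limma-voom and 2, Ung and Aptx, at an unadjusted edgeR p under 0.05. Ung was called higher at a threshold of 0.1 (log2 1.31, edgeR adjusted p = 0.068), and Neil2, too scarce for the filter with 0 reads in wild type and 7, 4 and 2 in the knockout, was called higher without it (edgeR adjusted p = 0.039). Lig3 was at 77.2 ± 16.3 and 74.9 ± 8.3 CPM and Apex1 at 22.3 ± 3.1 and 28.0 ± 3.4 CPM. Of 20 double-strand break genes 13 were tested, with 0 called by the same 3 tools and 0 at an unadjusted edgeR p under 0.05, and Brca1 was called higher without KO1 (log2 1.73, edgeR adjusted p = 0.039). Trp53bp1 was at 169 ± 23 and 131 ± 22 CPM and Atm at 58.1 ± 11.7 and 50.1 ± 1.1 CPM (SD, n = 3 each).

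Markers of other cells moved in part with the interferon-inducible members. For the counts below, 3.08% of all tested genes were called higher and 2.65% lower. Of 16 tested Kupffer cell and macrophage markers 4 rose (C1qc, Mpeg1, Ctss and Cybb) and none fell, and the 18 listed genes summed to 298, 536 and 409 CPM in WT1 to WT3 and 479, 857 and 864 CPM in KO1 to KO3. With 1 library left out the number called ranged from 0 (without WT1 or WT3) through 1 (without KO2), 2 (without KO3) and 5 (without WT2) to 8 (without KO1). Over all genes the calls higher went from 283 to 175 without WT1, 127 without WT3 and 409 without KO1. At an unadjusted edgeR p under 0.05, 12 of 16 markers were higher. The share of all tested genes at that threshold is not given here, so this count cannot be set against it. Relative to the wild type mean, the median marker was at -0.48, 0.44 and 0.07 on the log2 scale in WT1 to WT3 and at 0.27, 0.99 and 1.15 in KO1 to KO3. The median interferon-inducible member was at -0.15, -0.02 and 0.19 and at 0.65, 0.87 and 1.02 in the same libraries. In KO1 the median marker was below WT2 and above WT1 and WT3, while the median member was above every wild type library. In KO2 and KO3 both medians were above every wild type library, and the median marker exceeded the median member. Clec4f, which defines Kupffer cells, had 74 to 96 reads in wild type and 79 to 329 in the knockout and did not pass. The part of these cells in the rise of Parp9, Parp12 and Parp14 was not tested. Lymphocyte markers were near 0, with Cd3e at 0 in wild type and 2, 1 and 0 reads in the knockout, and the 14 listed genes summed to 4.89 to 10.1 CPM in wild type and 8.14 to 13.0 CPM in the knockout. Dendritic cell markers summed to 49.6 to 55.8 CPM and 51.4 to 68.9 CPM. Of 9 hepatocyte markers all had a fitted change below 0 and 1 was called lower (Cyp2e1, 6708 ± 176 to 2955 ± 974 CPM, edgeR adjusted p = 0.0040), and of 11 endothelial markers 1 was called higher (Tek) and 2 lower (Stab2 and Ehd3).

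**Figure D4:**
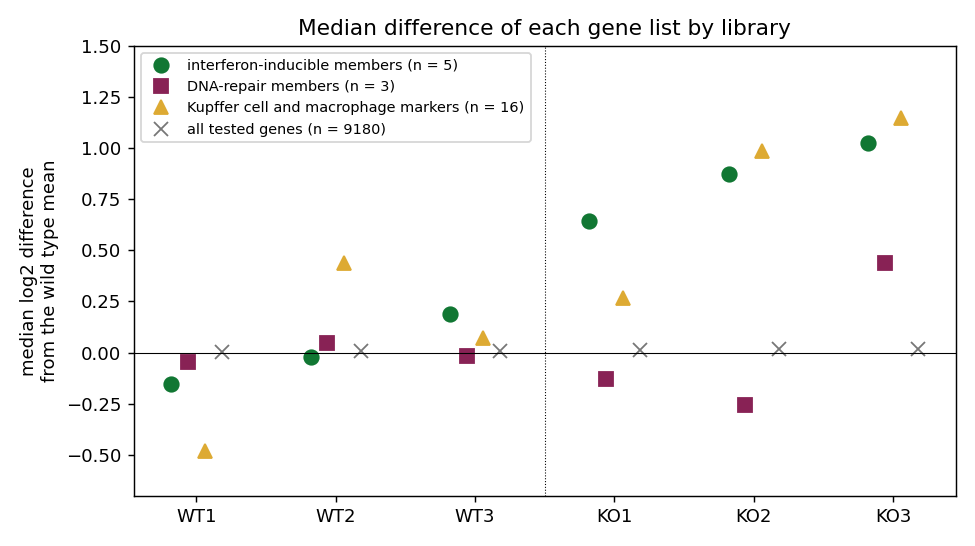
Median over genes of the log2 difference to the mean of the wild type libraries (vertical axis), by library, for the 5 interferon-inducible members, the 3 DNA-repair members, 16 macrophage markers and all 9180 tested genes. The interferon-inducible members reach 0.65 to 1.02 in the knockout, the macrophage markers 0.27 to 1.15, and all tested genes stay near 0.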

How the data were processed

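RNA-seq read counts per gene symbol were deposited by the authors for 6 liver libraries, with no normalization, and per the submitters' processing notes the tools were TopHat 1.4.1, HTSeq and edgeR on mm9, with no role stated. Protocols in the labels name TRIzol extraction, SuperScript reverse transcription and standard Illumina library preparation, and no source used here gives strandedness or poly(A) selection. Rows that name no gene entered neither library sizes nor tests, and 0 columns were unused. Of counted reads, 93.3% to 95.8% were assigned to no gene. Whether the strand setting of the counter played a part in this is not stated and was not tested.

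The test was that of edgeR 4.0.16 under R 4.3.3 (quasi-likelihood F test, TMM factors, genotype as the only term). The filterByExpr filter used a minimum count of 10 and kept 9180 of 23284 genes. A gene was called where its p, adjusted over all of these by Benjamini-Hochberg, was under 0.05. Standard errors are the log2 change over the square root of F, and 95% intervals use the same spread. CPM are counts per 1e6 reads in tested genes, scaled by the TMM factor. Alternatives were other scaling factors, other filters, a threshold of 0.1, DESeq2 1.42.0, limma-voom (limma 3.58.1), a replicate block, leaving out each library in turn, and KO2 as the only knockout library. The test was checked on simulated counts. Exon lengths, gene order and overlaps came from GENCODE M21 and promoters from RefSeq, both on GRCm38, not the mm9 of the notes. Python 3.11.15, numpy 2.4.6, pandas 2.3.3 and matplotlib 3.10.9 made tables and figures.

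The members and gene lists were chosen with earlier results of these data known. From each list, up to 5 called genes by smallest adjusted p were named, and up to 2 uncalled genes of highest level where fewer than 2 were called, beside all members, their nearest neighbours and the genes of most similar pattern. The values of 1 called signalling gene are not reported here.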

Additional observations from a re-analysis of the deposited data

How the results depend on the processing

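All 6 libraries are shallow in genes, so Parp10 and Parp2, with as few as 2 and 9 reads in a library, are the least certain of the 8 genes. The 3 calls among interferon-inducible members became 4 without the filter on low counts or at a threshold of 0.1, and 2 with limma-voom or KO2 alone; with 1 library left out the number ranged from 1 (without WT2 or WT3) to 3. The fit with KO2 alone assumes that it varies like the wild type libraries. The number of DNA-repair members called was 0, and of other PARP family genes 1, under all 16 alternatives. The median log2 fold change of the interferon-inducible members ranged from 0.75 (without KO3) to 1.12 with 1 library left out, and that of the DNA-repair members from -0.32 to 0.15. The latter was 0.10 with library totals only and -0.26 with KO2 alone. Signalling genes called higher numbered 3 with limma-voom and 2 to 5 with 1 library left out. Leaving out a library also changed the calls over all genes. Those called higher went from 283 to 171 without WT2, 127 without WT3 and 409 without KO1.

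Over all genes, calls numbered 283 higher and 243 lower, 576 and 509 without the filter, 445 and 437 at a threshold of 0.1, 373 and 172 with library totals only, and 127 to 409 and 95 to 363 with 1 library left out. The log2 change of Dtx3l turned to -0.086 with KO2 alone. That of Parp1, at 0.009, turned to -0.0115 without the filter, -0.0045 with at least 1 CPM in 3 libraries, -0.0203 with DESeq2, -0.0148 with limma-voom, -0.0286 with the replicate block, -0.09 without WT3, -0.32 without KO3 and -0.26 with KO2 alone. The causes were not tested. Same-numbered libraries did not deviate together (r = -0.07, 0.07 and 0.03 across genes for numbers 1 to 3), and not every library correlated best with its own number. No pairing by number was seen, but with 3 libraries per group this check cannot exclude it. With the replicate block 295 genes were higher and 250 lower, 3 interferon-inducible members and 4 signalling genes were called higher, and of the genes called and named here Stat2 lost its call (adjusted p = 0.053), while Rnf146 was called lower (-0.57, adjusted p = 0.047) and 7 macrophage markers were called higher.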
